A study of Homo sapiens with 11 samples.

Results

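The genes described here are 10 NF-kB-responsive genes that also belong to the secretory programme of senescent cells or restrain it: the cytokine genes IL6, IL1A, IL1B and CSF2, the chemokine genes CXCL8, CXCL1, CXCL2 and CXCL3, and the inhibitor genes NFKBIA and TNFAIP3. They were chosen by name, with earlier results of these data known, so shares of these genes set against all genes are descriptions only. All 10 were found among the 23167 Ensembl identifiers of the RNA-seq tables. RNA was sequenced from 2 wild-type (WT) and 2 mH2A1.1 knockdown (KD) samples of MDA-MB-231, an established human triple-negative breast cancer line, collected on day 3. KD cells had received siRNA against mH2A1.1, a splice isoform of the histone variant macroH2A1, at 11 nM, whereas WT cells had received the transfection reagent without siRNA. The loss of mH2A1.1 and the presence of an siRNA therefore cannot be told apart. ChIP-seq peaks of mH2A1.1 and of total mH2A1 came from 1 library each of untreated MDA-MB-231 cells, and the ChIP input and the 4 promoter capture Hi-C samples are not analysed here.

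NF-kB is a family of dimeric transcription factors held in the cytoplasm by IkB proteins until the IKK kinase complex marks those proteins for destruction. In the nucleus, NF-kB switches on cytokine and chemokine genes together with NFKBIA and TNFAIP3, whose products shut the pathway down again. Senescent cells and many aggressive breast cancer cells secrete IL-6, IL-8 and related factors, and IL-1 alpha can feed this output by acting back on the cell. The mRNAs of many of these genes carry AU-rich elements in their 3′ UTRs, which are bound by decay and stability factors.

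The promoters are shown first because they hold the motifs through which these genes are known to be controlled. In RefSeq windows on GRCh38.p14 that run from 250 bases before to 50 bases after a start, all 10 genes had an entry. Both strands were searched for an NF-kB consensus, for the RelA form GGAANTTCC, which can overlap it, for the AP-1 motif TGANTCA and for the C/EBP motif TTGCNNAA, and the forward strand for TATAAA. The NF-kB consensus was found in 6 of the 10 genes, against 5.91% of 35116 promoters. The RelA form was found in 5 of 10, against 0.965%, and either form in 7 of 10, against 6.62%. AP-1 letters were in 2 of 10 (7.71% of promoters), C/EBP letters in 3 of 10 (10.5%) and TATAAA in 2 of 10 (7.33%). The following stretches, read 5′ to 3′ on each gene's own strand, carry motif matches in capitals.
IL6, chr7:22727040-22727199, plus strand, C/EBP and NF-kB matches: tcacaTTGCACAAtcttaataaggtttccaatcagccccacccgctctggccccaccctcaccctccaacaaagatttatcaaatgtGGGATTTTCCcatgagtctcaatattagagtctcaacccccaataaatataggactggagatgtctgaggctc
CXCL8, chr4:73740409-73740568, plus strand, AP-1, RelA and TATA matches: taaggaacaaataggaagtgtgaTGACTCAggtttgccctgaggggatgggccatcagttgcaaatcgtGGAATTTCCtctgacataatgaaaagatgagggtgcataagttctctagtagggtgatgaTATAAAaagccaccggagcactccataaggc
CXCL1, chr4:73869293-73869352, plus strand, overlapping NF-kB and RelA matches: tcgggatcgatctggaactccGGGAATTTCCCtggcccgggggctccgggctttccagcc
CXCL2, chr4:74099196-74099305, minus strand, overlapping NF-kB and RelA matches: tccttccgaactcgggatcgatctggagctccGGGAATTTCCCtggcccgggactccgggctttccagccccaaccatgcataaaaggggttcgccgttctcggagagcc
CXCL3, chr4:74038730-74038789, minus strand, overlapping NF-kB and RelA matches: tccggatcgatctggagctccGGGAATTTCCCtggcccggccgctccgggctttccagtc
NFKBIA, chr14:35404790-35404849, minus strand, overlapping NF-kB and RelA matches: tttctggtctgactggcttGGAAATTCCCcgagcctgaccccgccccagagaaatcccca
TNFAIP3, chr6:137867159-137867218, plus strand, a pair of NF-kB matches: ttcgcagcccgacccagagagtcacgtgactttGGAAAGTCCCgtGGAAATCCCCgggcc

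In CXCL1, CXCL2 and CXCL3 the same 11 letters lay at nearly the same place, beginning 79, 78 and 79 bases before the start. The NFKBIA match began 81 bases before its start, the IL6 match 73 bases and the CXCL8 match 91 bases. CSF2 held none of the letters searched, which says only that they were not in this window. IL1A held AP-1 matches and TATAAA, the latter 239 bases before the start, and IL1B held a C/EBP match. With 1 kb before the start, 8 of the 10 genes held either NF-kB form, against 19.2% of promoters.

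The AU-rich pentamer ATTTA occurred in the 3′ UTR of all 10 genes, against 67.8% of 19228 coding genes of GENCODE release 44. Overlapping copies occurred in CXCL8, CXCL1, CXCL2, IL1B and CSF2, 5 of 10, against 7.12% of coding genes. CSF2 had the densest UTR of the 10, with 25.2 pentamers per kb, followed by IL6 with 14.1 and CXCL2 with 14, whereas the median of coding genes was 1.52. TNFAIP3, at 2.51, IL1A, at 4.38, and NFKBIA, at 6, were the lowest of the 10 in the main transcripts. There the cytokine gene IL1A lay between the inhibitor genes. This order depends on the transcript: with the longest 3′ UTR of each gene, NFKBIA was at 2.41, the lowest of the 10. The densest 30 bases of 4 UTRs, with ATTTA in capitals, show the windows with the most copies (CXCL8, CXCL2 and CSF2, with 4, 5 and 5) and one with a single copy (NFKBIA). The windows of IL6 and CXCL3, not printed, held 2 copies each.
CXCL8, bases 644 to 673 after the stop codon: taacctATTTAttATTTAtgtATTTATTTA
CXCL2, bases 137 to 166 after the stop codon: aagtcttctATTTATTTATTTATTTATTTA
CSF2, bases 220 to 249 after the stop codon: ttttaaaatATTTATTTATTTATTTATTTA
NFKBIA, bases 62 to 91 after the stop codon: ctaaaaaaagaaaaaagaagaaaaaATTTA

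**Figure D1:**
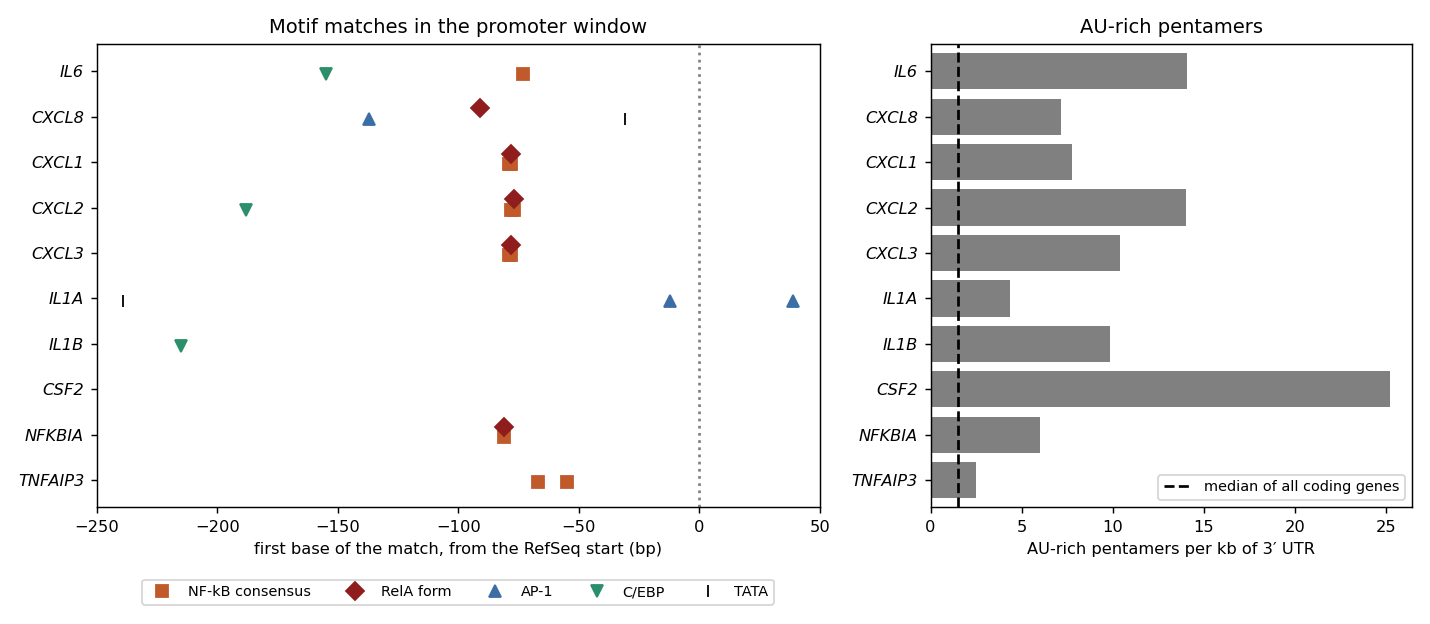
Left, the first base of each motif match (horizontal axis, bp from the RefSeq start) for each gene; right, AU-rich pentamers per kb of 3′ UTR, with the median of coding genes (1.52) as a dashed line. NF-kB matches of 7 genes lie between 91 and 55 bp before the start, and CSF2, with no motif match, has the longest bar at 25.2 per kb.

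The RNA-seq libraries differed in depth and in what they covered. The WT libraries held 9794674 and 7856892 counts and the KD libraries 5584962 and 2309549. KD replicate 2 had 658 genes at 0 that had at least 30 counts in each other library, all on chromosomes 21, 22 and X, which were left out of the first test. None of the 10 genes lies there. Log2 levels across genes correlated at r = 0.994 between the WT libraries and 0.959 between the KD libraries, and genes are not independent replicates. Levels are counts per 1000000 (CPM) after scaling by TMM factors. The 5 marker genes of the line, VIM, CD44, AXL and EGFR among them, were high, with summed levels of 6365 and 6602 CPM in WT and 7251 and 9772 in KD, and 7 leukocyte marker genes summed to between 7.75 and 11.8 CPM in the 4 libraries. The 5 fibroblast markers summed to 42.8 and 47.7 CPM in WT and 69.5 and 104 CPM in KD, with DCN at 0 in all 4 libraries. Of these COL1A1 and COL1A2, collagen genes, were called higher in KD by DESeq2 (adjusted p = 0.0167 and 0.0496). With offsets for length and GC content, described below, edgeR also called 2 of the fibroblast markers higher. DESeq2 also called 2 of the 5 markers of the line higher, VIM among them (adjusted p = 0.0992). The keratin gene KRT18, the remaining marker of the line, had 344 and 380 CPM in WT and 515 and 808 CPM in KD. The part of these marker genes in the results below was not tested. A further 6 luminal or epithelial markers, low in the line, summed to 120 and 123 CPM in WT and 129 and 176 CPM in KD. The labels do not say that libraries came from separate cultures, so p-values measure the spread between these samples, which may be technical.

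MACROH2A1 (ENSG00000113648), the targeted gene, had 385 and 394 CPM in WT and 274 and 300 CPM in KD. The groups did not overlap, with a log2 fold change of -0.44 ± 0.17 (SE, n = 2 and 2), which missed the threshold in edgeR's quasi-likelihood test (adjusted p = 0.205). Each SE given for edgeR was derived from the log2 fold change and the F statistic of that test. Gene counts do not separate mH2A1.1 from mH2A1.2.

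Per length of exon, the WT level of the 10 genes spanned a wide range. As mean FPKM (fragments per kb of exon, scaled to library size) ± SD of 2 WT libraries, NFKBIA was highest at 30.9 ± 3.66, followed by CSF2 at 25.8 ± 0.657, IL6 at 24 ± 1.43 and CXCL2 at 22.3 ± 4.89. These 4 stood between the 81.2 and 87.6 percentile of the genes tested. CXCL8 was at 10.2 ± 1.57, CXCL1 at 5.23 ± 1.19, TNFAIP3 at 3.52 ± 0.30 and CXCL3 at 1.29 ± 0.234 FPKM. IL1A, at 0.732 ± 0.330, and IL1B, at 0.515 ± 0.270, were the lowest. The ranges of the neighbours IL6 and CXCL2 overlapped, as did those of IL1A and IL1B, while the other neighbours did not. The lower CSF2 library, at 25.4 FPKM, was just above the higher IL6 library, at 24.97 FPKM. The place of CSF2 depends on the length used: by the length from gene start to end it was at 8.55, below IL6 at 16.9 and CXCL2 at 14.4 and close to CXCL8 at 8.29, and IL1A, at 0.14, was then below IL1B, at 0.219.

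IL6, CXCL8, CXCL2, CXCL3 and CSF2 had lower RNA levels in both KD libraries than in both WT libraries, whereas CXCL1, IL1A, IL1B, NFKBIA and TNFAIP3 overlapped between the groups. Changes were called at an adjusted p under 0.1 with a fold change over 1.5. In edgeR's quasi-likelihood test none of the 9 genes tested passed, since 0 of 10963 genes (0%) were called, while 2540 had an unadjusted p under 0.05 and DESeq2 called 874. The calls below therefore come from other fits, and each is named with its fit. Of the 10963 genes tested, 32.4% had both KD libraries below both WT libraries, as did 5 of the 9 genes tested here.

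**Figure D2:**
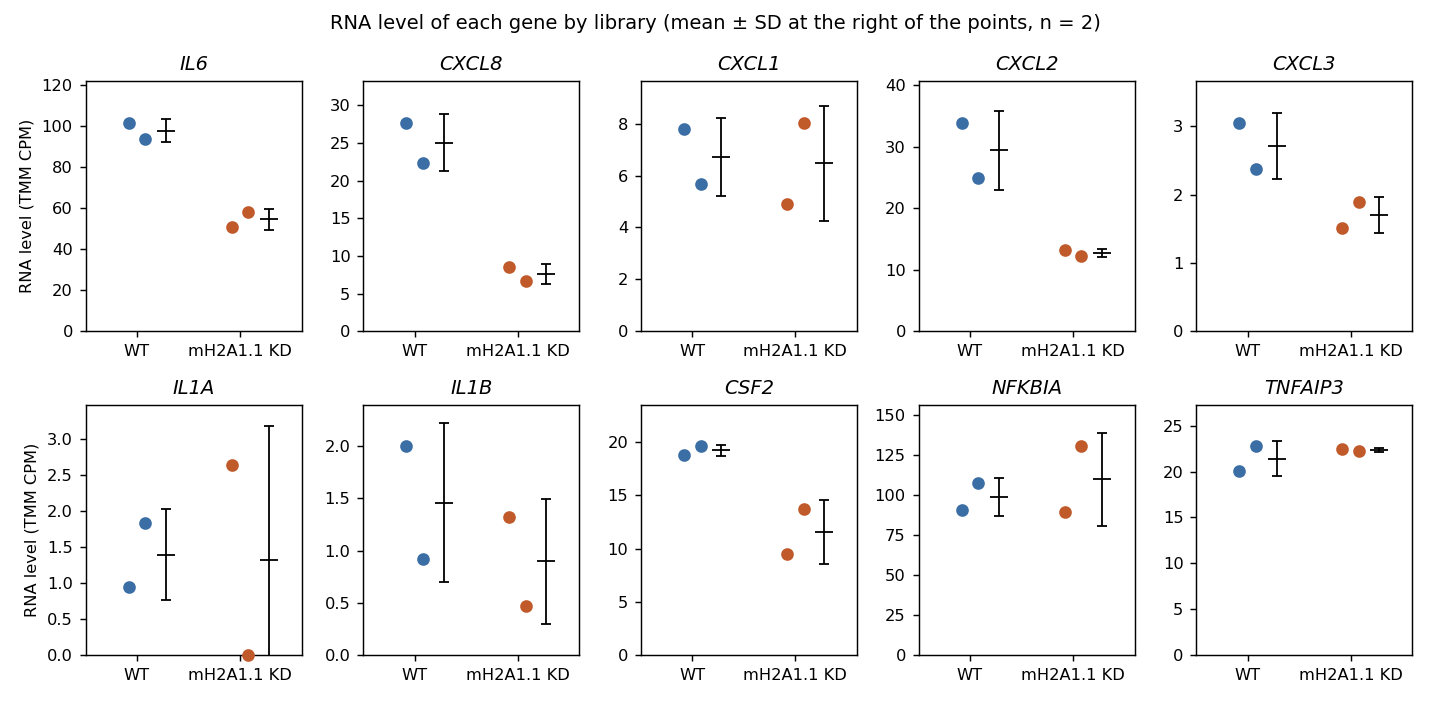
RNA level (vertical axis, TMM-scaled CPM, from 0) of each gene in 2 WT (blue) and 2 mH2A1.1 KD (orange) libraries; black marks are the mean and bars the SD, cut at 0. The KD points of IL6, CXCL8, CXCL2, CXCL3 and CSF2 sit below both WT points, and the points of the other 5 genes overlap between groups.

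IL6 (ENSG00000136244), which encodes a cytokine that signals through the shared receptor subunit gp130, had 102 and 93.8 CPM in WT and 50.8 and 58.1 CPM in KD. The groups did not overlap, and counts of 123 to 966 lay behind these values. Its log2 fold change was -0.85 ± 0.18 (SE; edgeR adjusted p = 0.183, unadjusted p = 0.00255).

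CXCL8 (ENSG00000169429), which encodes the neutrophil chemoattractant IL-8, had 27.7 and 22.4 CPM in WT and 8.50 and 6.62 CPM in KD. Both KD libraries were far below the WT libraries, with 45 and 14 counts against 263 and 170. Its log2 fold change of -1.68 ± 0.26 (edgeR adjusted p = 0.176) had the largest size of the 9 genes tested in this fit, but not with offsets for length and GC content, described below.

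CXCL2 (ENSG00000081041), which encodes a chemokine for the receptor CXCR2, had 33.9 and 24.9 CPM in WT and 13.2 and 12.3 CPM in KD. The KD libraries were close to each other and below both WT libraries, and the log2 fold change was -1.19 ± 0.25 (edgeR adjusted p = 0.176). CSF2 (ENSG00000164400), which encodes the myeloid growth factor GM-CSF, had 18.8 and 19.6 CPM in WT and 9.45 and 13.7 CPM in KD. Its groups did not overlap, with a log2 fold change of -0.79 ± 0.26 (edgeR adjusted p = 0.194).

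The CXCL1 and CXCL3 genes, neighbours of CXCL2 that encode related chemokines, were called in none of the fits run. CXCL1 (ENSG00000163739) had 7.78 and 5.65 CPM in WT and 4.91 and 8.03 CPM in KD, with a log2 fold change of -0.17 ± 0.35 (edgeR adjusted p = 0.77). CXCL3 (ENSG00000163734) had 3.05 and 2.37 CPM in WT and 1.51 and 1.89 CPM in KD, from 4 to 29 counts, with a log2 fold change of -0.74 ± 0.42 (edgeR adjusted p = 0.302). The main transcripts of CXCL1 and CXCL2 were 91.1% identical over aligned bases, and those of CXCL3 were 82.2% and 83.6% identical to them. Between 0.5% and 5.6% of their 50-base windows were shared exactly, so reads there could be lost to the authors' filter on mapping quality.

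IL1A and IL1B, which encode the founding interleukin-1 cytokines, were too low for a comparison. IL1A (ENSG00000115008) had 9 and 14 counts in WT, 14 in KD replicate 1 and 0 in KD replicate 2, and 3 counts in that last library equal 1.42 CPM, above the WT mean of 1.39 CPM. Without KD replicate 1, the fit called IL1A lower (adjusted p = 0.0862), a call that rests on the single KD library at 0 counts. With all 4 libraries a difference was not detectable at this depth. IL1B (ENSG00000125538) had 19 and 7 counts in WT and 7 and 1 in KD and did not pass the filter on low counts.

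The inhibitor genes overlapped between the groups. NFKBIA (ENSG00000100906), which encodes IkB alpha, had 90.4 and 107 CPM in WT and 89.2 and 130 CPM in KD. Its log2 fold change was 0.14 ± 0.23 (edgeR adjusted p = 0.714), and it was -0.18 ± 0.12 with the same offsets. TNFAIP3 (ENSG00000118503), which encodes the ubiquitin-editing protein A20, had 20.1 and 22.7 CPM in WT and 22.5 and 22.2 CPM in KD. The log2 fold change of TNFAIP3 was 0.06 ± 0.21 (edgeR adjusted p = 0.858), and -0.03 without WT replicate 1.

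The fold changes of all genes moved with GC content of exons. The median log2 fold change was -0.44 in the lowest of 4 equal groups of genes by GC content (31% to 41.4%) and 0.45 in the highest (55.2% to 73.8%). CXCL8 lies at the low end, at 31.6%, and NFKBIA is the highest of the 10 genes, at 53.7%. IL6 (45.8%) lies in the second group, with a median of -0.14, and CXCL2 (48.7%) and CSF2 (50.3%) in the third, with a median of 0.19. When trends with length and GC content were removed from each library by offsets, the 4 medians were between 0.003 and 0.011.

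**Figure D3:**
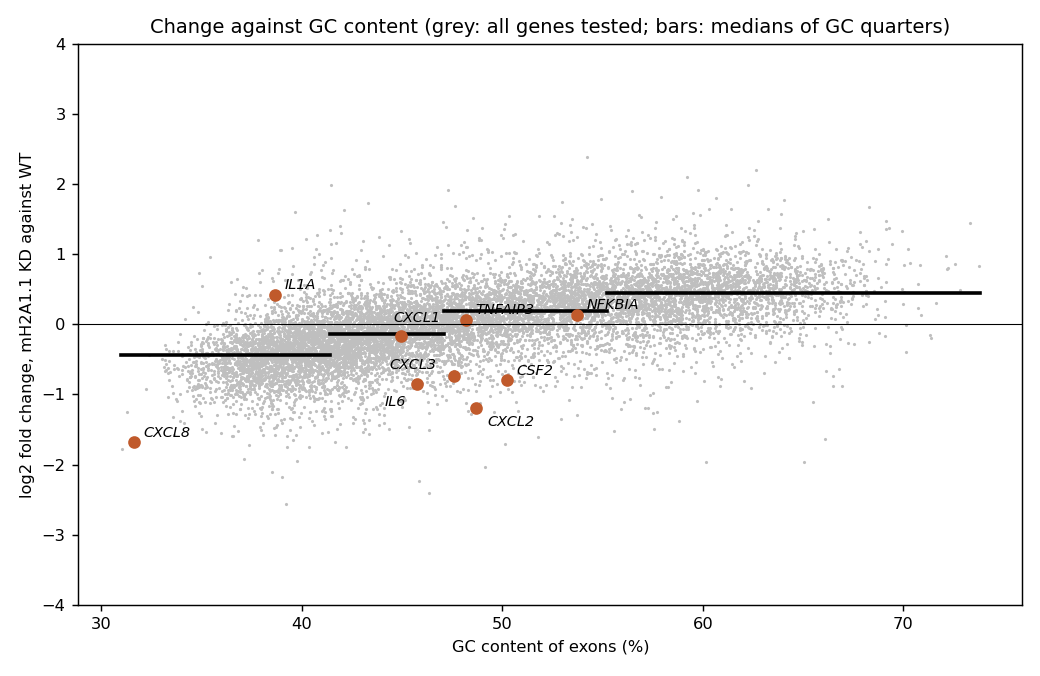
Log2 fold change of mH2A1.1 KD against WT (vertical axis) against GC content of exons (horizontal axis, %), for all genes tested (grey) and the 9 genes tested here (orange); black bars are medians of the 4 GC groups, rising from -0.44 to 0.45. All of the 9 but IL1A lie below the bar of their GC group, though CXCL1, NFKBIA and TNFAIP3 only slightly. CXCL8 lies at the lowest GC content of the 9.

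With the offsets, edgeR called IL6, CXCL8, CXCL2 and CSF2 lower in KD, 4 of the 9 genes tested here against 3.25% of all genes tested. The log2 fold change of IL6 was -0.79 ± 0.13 (adjusted p = 0.0273). That of CXCL2 was -1.37 ± 0.23 (adjusted p = 0.0294). That of CSF2 was -1.15 ± 0.17 (adjusted p = 0.0218), larger in size than without offsets. That of CXCL8 was -0.97 ± 0.21 (adjusted p = 0.0499), a smaller change by over 1.5 times than the -1.68 without offsets, and smaller in size than those of CXCL2 and CSF2. CXCL1, CXCL3, IL1A, NFKBIA and TNFAIP3 were not called, with adjusted p between 0.252 and 0.942.

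DESeq2 gave adjusted p-values for 4 of the 10 genes and called IL6 and CXCL2 lower (adjusted p = 0.0317 and 0.0325), against 5.73% of genes. CXCL8 and CSF2 were given no adjusted p there, since their means fell under its own filter. With all chromosomes kept, a fit chosen after seeing the data, DESeq2 called IL6, CXCL8, CXCL2 and CSF2 lower (adjusted p = 7.54e-05, 0.000158, 0.00918 and 0.0978), against 5.78% of genes. Without KD replicate 2, the library that lacks counts on chromosomes 22 and X, edgeR called IL6, CXCL8, CXCL2 and CSF2 lower, against 5.31% of genes, with log2 fold changes of -0.94 for IL6, -1.56 for CXCL8, -1.16 for CXCL2 and -1.02 for CSF2. Without KD replicate 1, IL6, CXCL8, CXCL2 and IL1A were called lower, against 21.4% of genes, and CSF2 was at -0.49 and was not called (adjusted p = 0.143). Leaving out WT replicate 1 or WT replicate 2 left none of the 10 called.

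**Figure D4:**
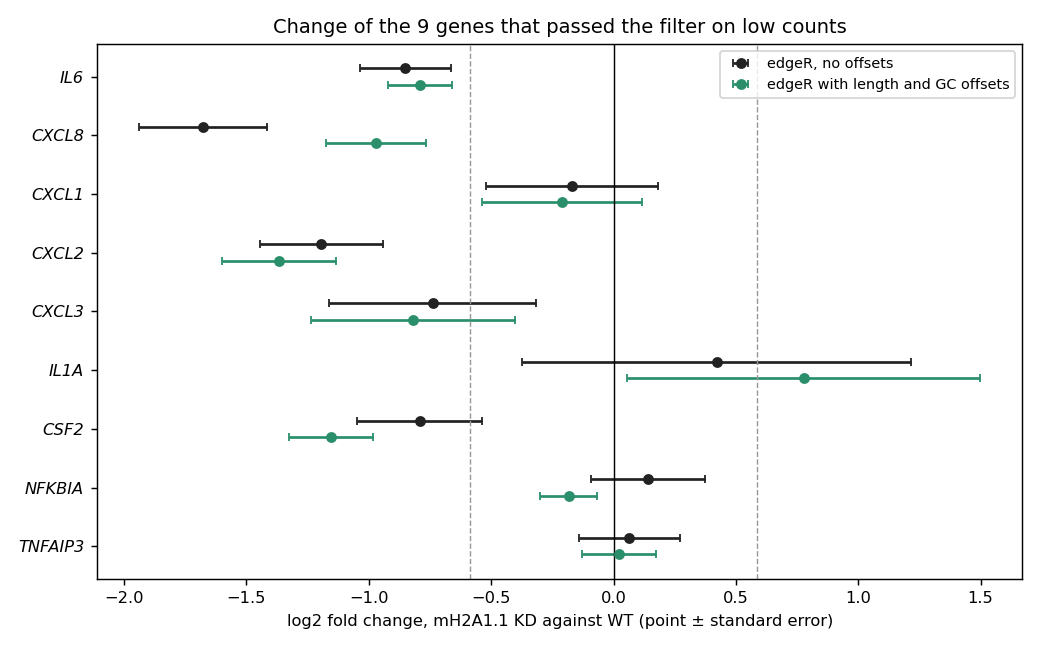
Log2 fold change of mH2A1.1 KD against WT (horizontal axis; points with SE bars) of the 9 genes tested, from edgeR without (black) and with (green) length and GC offsets; dashed lines mark a 1.5-fold change. IL6, CXCL8, CXCL2, CSF2 and CXCL3 lie beyond the lower dashed line in both fits, CXCL3 with the widest SE bars among them. CXCL1, NFKBIA and TNFAIP3 lie near 0.

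The rest of the pathway was described from fixed lists, in which edgeR called no gene. The 5 NF-kB subunit genes were all tested, with a median log2 fold change of 0.34 and of 0.03 with offsets, and none was called with offsets or by DESeq2. RELA, the main activating subunit, had 103 and 123 CPM in WT and 132 and 165 CPM in KD (log2 fold change of 0.39 without and -0.01 with offsets). NFKB1, the p50 precursor, had 78.0 and 81.3 CPM in WT and 69.3 and 74.7 CPM in KD. NFKB2, the p52 precursor, had 83.7 and 84.3 CPM in WT and 79.7 and 136 CPM in KD.

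Of 10 other IkB-family and regulator genes of the pathway, 8 were tested. NFKBID alone was called lower with offsets (log2 fold change of -1.06, adjusted p = 0.0915 in edgeR), a gene named after its values were seen. TNIP1, a partner of A20, had 231 and 232 CPM in WT and 244 and 394 CPM in KD. NFKBIZ, an atypical nuclear IkB protein that IL6 induction depends on, had 105 and 83.4 CPM in WT and 76.3 and 73.2 CPM in KD. OTULIN, a deubiquitinase, had 93.9 and 91.1 CPM in WT and 96.2 and 83.6 CPM in KD. Neither these 3 nor any of the 14 tested of 18 genes of the IKK complex and its upstream kinases and adaptors was called with offsets. The ubiquitin ligase gene BIRC2 had 216 and 194 CPM in WT and 175 and 92.6 CPM in KD, and the adaptor gene TAB2 184 and 179 CPM in WT and 173 and 120 CPM in KD. The kinase gene IRAK1 lies on X, where KD replicate 2 held no counts, and had 240, 266 and 282 CPM in the other 3 libraries.

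The next list held 16 genes, which encode receptors, coreceptors and the receptor antagonist IL1RN, and 9 of them were tested. IL6ST, which encodes gp130, the signalling subunit of the IL-6 receptor, had 960 and 892 CPM in WT and 576 and 361 CPM in KD. DESeq2 called IL6ST lower (log2 fold change of -0.99, adjusted p = 0.0131), whereas with offsets edgeR gave -0.40 and did not call it. TNFRSF1A, the main TNF receptor, had 99.2 and 115 CPM in WT and 148 and 175 CPM in KD (edgeR adjusted p = 0.194). LTBR, the lymphotoxin beta receptor, had 69.9 and 78.0 CPM in WT and 81.8 and 91.7 CPM in KD (edgeR adjusted p = 0.441). The chemokine receptor genes CXCR1 and CXCR2, for the products of CXCL8, CXCL1, CXCL2 and CXCL3, had 1 count in all 4 libraries together and 0 counts. IL6R, the ligand-binding subunit of the IL-6 receptor, had between 1 and 5 counts per library.

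Of the 20 other NF-kB target genes, 11 were tested, with a median log2 fold change of -0.05, or of -0.44 with offsets. With offsets, edgeR called BIRC3, CXCL16 and CD83 lower, and none higher. BIRC3, an inhibitor of apoptosis, had 170 and 155 CPM in WT and 71.2 and 34.0 CPM in KD, with a log2 fold change of -1.01 with offsets (adjusted p = 0.017) and of -1.61 in DESeq2 (adjusted p = 0.00026). CXCL16, which encodes a membrane-bound chemokine, had 4.21 and 4.47 CPM in WT and 1.89 CPM in both KD libraries (with offsets -1.51, adjusted p = 0.0597), and CD83 had -0.80 (adjusted p = 0.0885); both were named after their values were seen. TNFAIP2 had 183 and 176 CPM in WT and 150 and 198 CPM in KD, and the transcription factor gene IRF1 121 and 131 CPM in WT and 102 and 169 CPM in KD. TNF itself is not analysed here.

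Of the 34 other secretome genes, 23 were tested, and the median log2 fold change was -0.05, or -0.23 with offsets. With offsets, IGFBP7 (-0.74, adjusted p = 0.0538) and IL11 (-1.55, adjusted p = 0.042) were called lower by edgeR and none higher, and both were named after their values were seen. DESeq2 called neither, with an adjusted p of 0.102 for IGFBP7 and none for IL11. IL11, a cytokine of the IL-6 family that also signals through gp130, had 18 and 16.4 CPM in WT and 8.69 and 4.73 CPM in KD. MMP14, a membrane-bound matrix protease, had 547 and 600 CPM in WT and 768 and 1147 CPM in KD and was called higher by DESeq2 (log2 fold change of 0.72, adjusted p = 0.064), though not with offsets (0.31, adjusted p = 0.124 in edgeR). IGFBP4 had 1099 and 1165 CPM in WT and 998 and 1407 CPM in KD, and TIMP2, an inhibitor of matrix proteases, had 588 and 598 CPM in WT and 625 and 587 CPM in KD.

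Of 14 genes of the senescent state and of secretome control, 11 were tested. CDKN2A and CDKN2B, which encode the cell cycle inhibitors p16 and p15, had 0 counts in all 4 libraries. With offsets, edgeR called CDKN1A, the p21 gene, lower (log2 fold change of -0.63, adjusted p = 0.0471), and LMNB1, the lamin B1 gene (-0.68, adjusted p = 0.0202), both named after their values were seen. DESeq2 called neither, with -0.18 for CDKN1A (adjusted p = 0.729) and -0.54 for LMNB1 (adjusted p = 0.144). CDKN1A had 81.1 and 85.2 CPM in WT and 54.2 and 96.4 CPM in KD, so its levels without offsets overlapped. HMGB1, a chromatin protein that senescent cells release, had 342 and 334 CPM in WT and 237 and 129 CPM in KD and was called lower by DESeq2 (-0.89, adjusted p = 0.0509), as was the DNA sensor gene CGAS (-0.88, adjusted p = 0.0696), named after its values were seen. With offsets neither passed the fold limit, with -0.51 for HMGB1 and -0.56 for CGAS in edgeR, and the GC content of their exons was 40.4% and 41.7%. HMGB2 had 202 and 206 CPM in WT and 184 and 220 CPM in KD, and MTOR 163 and 166 CPM in WT and 199 and 266 CPM in KD.

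All 10 genes for factors that bind AU-rich elements or degrade cytokine mRNAs were tested. With offsets, edgeR called ZFP36, the decay factor tristetraprolin (-0.84, adjusted p = 0.0196), and its relative ZFP36L2 (-0.86, adjusted p = 0.0224) lower, both named after their values were seen. ZFP36 had 112 and 107 CPM in WT and 65.2 and 111 CPM in KD, and DESeq2 called neither it (adjusted p = 0.439) nor ZFP36L2 (adjusted p = 0.16). HNRNPD, which encodes the AU-rich element binding protein AUF1, had 469 and 437 CPM in WT and 397 and 414 CPM in KD. ZFP36L1 had 324 and 332 CPM in WT and 279 and 306 CPM in KD, and KHSRP 270 and 281 CPM in WT and 319 and 347 CPM in KD.

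In ChIP-seq of untreated cells, an mH2A1.1 peak lay within 500 bp of the transcription start site (TSS) of IL6, CXCL2, CXCL3, IL1B, CSF2 and TNFAIP3, 6 of the 10 genes, against 37.8% of 23061 genes and 46.9% of the genes tested in RNA. A total mH2A1 peak lay there in IL6, CXCL2, CSF2 and TNFAIP3, 4 of 10, against 21.2% of genes. An mH2A1.1 peak shared with mH2A1 lay there in 5 of 10 (IL6, CXCL2, IL1B, CSF2 and TNFAIP3), against 23.8% of genes. Peaks came from 1 library per antibody in bins of 3000 bp, so there is no replicate of them.

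The peaks differed in width between the genes. A 39000 bp peak (chr5:132063001-132102000, hg38) covered the whole of CSF2, a 30000 bp peak (chr2:112815001-112845000) the whole of IL1B and a 15000 bp peak (chr7:22719001-22734000) the whole of IL6. At CXCL2 (chr4:74097001-74100000), CXCL3 (chr4:74037001-74040000) and TNFAIP3 (chr6:137865001-137868000) the peak was a single bin of 3000 bp. The TNFAIP3 peak covered 4.9% of that gene, and that of CXCL2 covered its whole length. The mH2A1.1 peak nearest to CXCL8 lay 12519 bp upstream of its TSS, that of CXCL1 29608 bp downstream, that of IL1A 12508 bp upstream and that of NFKBIA 4252 bp upstream. Of the 4 genes called lower with offsets, IL6, CXCL2 and CSF2 had an mH2A1.1 peak at the TSS and CXCL8 did not, while CXCL3 and TNFAIP3 had one and were not called. IL1B had one too and was not tested.

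**Figure D5:**
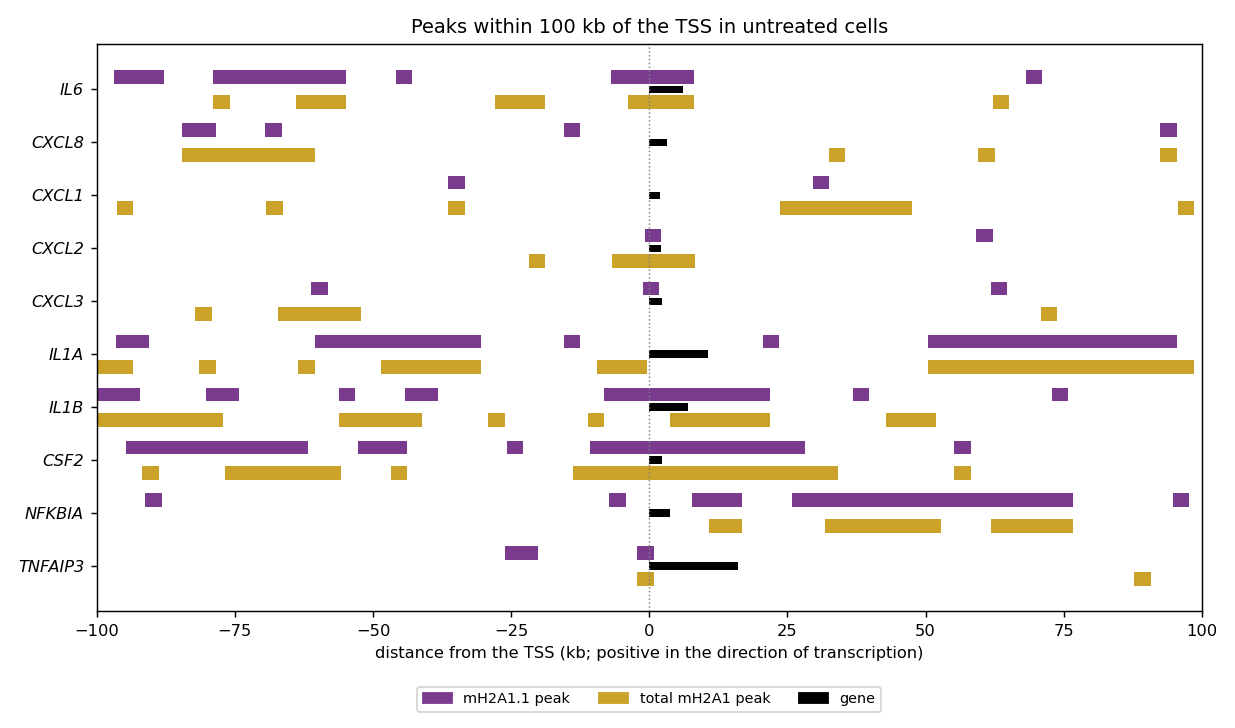
Peaks of mH2A1.1 (purple) and total mH2A1 (yellow) within 100 kb of the TSS of each gene in untreated cells (horizontal axis, kb, positive along transcription; black bars are the genes). Peaks cover the TSS of IL6, CXCL2, CSF2 and TNFAIP3 in both tracks, and CXCL8, CXCL1, IL1A and NFKBIA have no mH2A1.1 peak at the TSS.

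The chemokine genes sit together on chromosome 4 and the interleukin-1 genes on chromosome 2. Over the 358678 bp from CXCL8 to CXCL2, mH2A1.1 peaks covered 4.0% and total mH2A1 peaks 12.3%, and 2 of the 9 genes, CXCL2 and CXCL3, had an mH2A1.1 peak at the TSS. In the same stretch CXCL6, PF4V1, PF4, PPBP and CXCL5 had 0 counts in all 4 libraries. Over the 360092 bp of the interleukin-1 cluster, mH2A1.1 peaks covered 26.9% and mH2A1 peaks 24.4%, with an mH2A1.1 peak at the TSS of IL1B and IL37. IL37 had 1 count in all, and IL36A, IL36B, IL36G, IL36RN and IL1F10 had 0 counts. IL1RN, which encodes the natural antagonist of IL-1, had 9 and 8 counts in WT and 13 and 6 in KD (log2 fold change of 1.36 ± 0.43, edgeR adjusted p = 0.194).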

How the data were processed

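For RNA-seq, the authors deposited unnormalized read counts for each gene, obtained by aligning to GRCh38 with STAR 2.5.1, filtering on mapping quality, removing duplicates (without molecular identifiers, which also removes distinct molecules) and counting with htseq-count. The annotation is not given in the sources used here; 23061 of 23167 identifiers matched GENCODE release 44. The authors' peak positions came from enrichment over input in single libraries.

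The test was that of edgeR 4.0.16, run in R 4.3.3 (TMM, filter on low counts, quasi-likelihood test, Benjamini-Hochberg adjustment over all genes), tested on simulated data first. DESeq2 1.42.0, which the study used, and offsets for length and GC content (lowess span 0.3) were alternatives. FPKM used summed exon lengths. Depth was 2309549 to 9794674 counts, and the limit of 3 counts covers counting error only.

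The members and lists were chosen with earlier results of these data known. The rule named all 10 genes, MACROH2A1, the genes of both clusters for peaks, and of each list the genes called in the first test (0) and the 3 highest in WT CPM. Outside it, and chosen after their values were seen, are the genes called with offsets or by DESeq2 (NFKBID, CXCL16, CD83, IGFBP7, IL11, CDKN1A, LMNB1, CGAS, ZFP36, ZFP36L2), genes at or near 0 counts (CXCR1, CXCR2, IL6R, CDKN2A, CDKN2B) and the marker genes named. Replicate numbers are shared between groups, but nothing in the labels ties them, so samples were not paired. Deviations of same-numbered libraries from their group means correlated at 0.252. With 2 libraries per group both pairs must give the same value, so it cannot decide whether samples were paired. Sequences were read from RefSeq (GRCh38.p14) and GENCODE.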

Additional observations from a re-analysis of the deposited data

How the results depend on the processing

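The direction of IL6, CXCL8, CXCL2, CXCL3 and CSF2 held in every fit that gave a value, with each library left out in turn included. The number of genes called, 0 in edgeR, was 874 with DESeq2, 945 with DESeq2 and all chromosomes kept (chosen after seeing the data), 2139 without the filter on low counts, 593 with length and GC offsets and 471 with DESeq2 and offsets. With each library left out in turn it ranged from 2 to 4744 (2 and 17 without WT replicates 1 and 2, 4744 and 909 without KD replicates 1 and 2), where a lone sample is assumed to vary like the others. It stayed at 0 with RLE factors, with all chromosomes kept and with an adjusted p under 0.05 and no fold limit. Of the 10 genes, the number called was 2, 4, 4, 4 and 3 in the same 5 fits, and ranged from 0 to 4 with a library left out, IL1A being among the 4 without KD replicate 1. Of the genes of the other lists it was 5, 12, 23, 10 and 5, and from 0 to 37 with a library left out. The 23 came from the fit without the filter on low counts, which called 2139 of all 15068 genes tested. The 37 came from the fit without KD replicate 1, which rests on a single KD library and called 4744 of 11351 genes. Whether the lists differed from all genes in these fits was not tested.

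With the replicate number as a block, which rests on numbers alone, 2208 of all 10963 genes tested were called. Among them were 24 listed genes and 4 of the 9 members tested. With the block and offsets, 869 of 10963 genes, 11 listed genes and 4 of the 9 were called. The direction of NFKBIA reversed with offsets (-0.18, and -0.12 in DESeq2; -0.18 with the block), and that of CXCL1 in DESeq2 with offsets (0.01). With a library left out, CXCL1 ranged from -0.47 to 0.23, NFKBIA from -0.14 to 0.40, TNFAIP3 from -0.03 to 0.15 and IL1A from -6.13 to 0.97, where the lowest value compares with a single library at 0 counts and is no bound. The median WT level of the 10 genes was 7.74 FPKM, and 6 by length from start to end. MACROH2A1 stayed lower in KD and was called in none of the fits. Depth limits CXCL3, IL1A and IL1B most, since 3 counts equal 1.42 CPM in KD replicate 2.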
